A study of Mus musculus with 9 samples.

Results

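The 4 control libraries of the study were described here on their own, as the baseline transcriptome of leptin receptor (LEPR) lineage cells sorted from the fibrous tissue around a tibial implant. A gene was included when its normalized count, a read count divided by 1 size factor per library, reached 10 in every control library. This held for 13717 of the 27179 gene IDs in the matrix. Of these, 13469 had a gene symbol and 12806 were protein-coding in RefSeq. No comparison with the other genotype was made, no difference was tested and no p-value is given: values are described by their level, their rank and their spread over 4 libraries.

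All mice carried Lepr-CreERT, a Cre recombinase placed under control of Lepr that acts only after tamoxifen, and the Tdtomato reporter. The control genotype was Lepr-CreERT;Tdtomato, named a Cre-only littermate control, and the study also holds 5 libraries of Lepr-CreERT;Tdtomato;Grem1fl/fl mice, which are not described here. Tamoxifen was given to all groups, an implant was placed in the tibia, and the tissue around it was taken 2 weeks later. Lin-Lepr-tdTomato+ cells were sorted by flow cytometry and their polyadenylated RNA was sequenced in paired reads of 150 bases. The fluorescence marks cells, and the descendants of cells, in which Lepr-driven Cre had been active, so a sorted cell need not express Lepr at harvest. The labels name neither the antibodies behind "Lin" nor the sex of the mice, and they do not say whether each library came from a different animal. The spread may therefore be technical within the pair of replicates 1 and 3 and within the pair of 2 and 4; between the pairs, X-linked and Y-linked RNA differed, as given below.

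LEPR-positive stromal cells surround the sinusoids of adult bone marrow. They are known as the main source there of the chemokine CXCL12 and of stem cell factor, the product of Kitl, both of which retain blood stem cells in their niche. LEPR-lineage cells give rise to osteoblasts and marrow adipocytes in the adult, and they can form cartilage and fibrous tissue after injury. Gremlin 1, the product of Grem1, is a secreted protein that binds bone morphogenetic proteins (BMPs) and keeps them from their receptors.

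Depth was similar in the 4 libraries, from 44.8 to 53.4 M (megareads) of reads recovered from the matrix, and 16109 to 16321 genes had at least 1 read in each. Values of single genes are given below as normalized counts in control replicates 1, 2, 3 and 4, always in that order, and a mean is given with its SD over n = 4. The libraries did not stand alike. Across the 13717 genes, Spearman's rho was 0.971 between replicates 1 and 3 and 0.975 between replicates 2 and 4, against 0.933 to 0.94 for the other 4 pairs (genes are not independent, and no p is attached). The RNA Xist, made from the inactive X chromosome, had 870.1, 0, 2192 and 0 normalized counts, and the Y-linked helicase gene Ddx3y had 0, 3942, 109.8 and 5204. Replicates 1 and 3 thus held Xist and replicates 2 and 4 held Y-linked RNA, with a low Ddx3y value in replicate 3 beside its Xist. The same 2 pairs separated on endothelial genes: the 20 genes of an endothelial list summed to 0.531%, 0.0263%, 0.681% and 0.037% of normalized counts. With 4 libraries, the X and Y difference, the endothelial RNA and any other feature shared by replicates 1 and 3 cannot be told apart, and results that rest on this division are given per library and, for counts of genes, also within each pair. In sorted bulk RNA, fewer cells of a type and less RNA per cell cannot be told apart either.

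The control transcriptome was dominated by a small number of extracellular matrix genes. The most abundant gene of each library held 3.41% to 5.3% of the counts of the 13717 genes; it was Col1a1 in replicates 1 and 3 and Col2a1 in replicates 2 and 4. The 10 most abundant genes held 20.6% ± 3.26 (SD, n = 4) of these counts, from 16.4% in replicate 3 to 23.3% in replicate 4. The first 100 genes held 35.5% ± 3.67 and the first 1000 held 61.8% ± 2.69. Replicate 3 was the least concentrated library, with 556 genes needed to reach 50% of the counts, and replicate 2 needed 311. By mean level, 45 genes lay at 100000 normalized counts or more, 819 between 10000 and 100000, 7098 between 1000 and 10000, 4716 between 100 and 1000, and 1039 below 100.

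**Figure D1:**
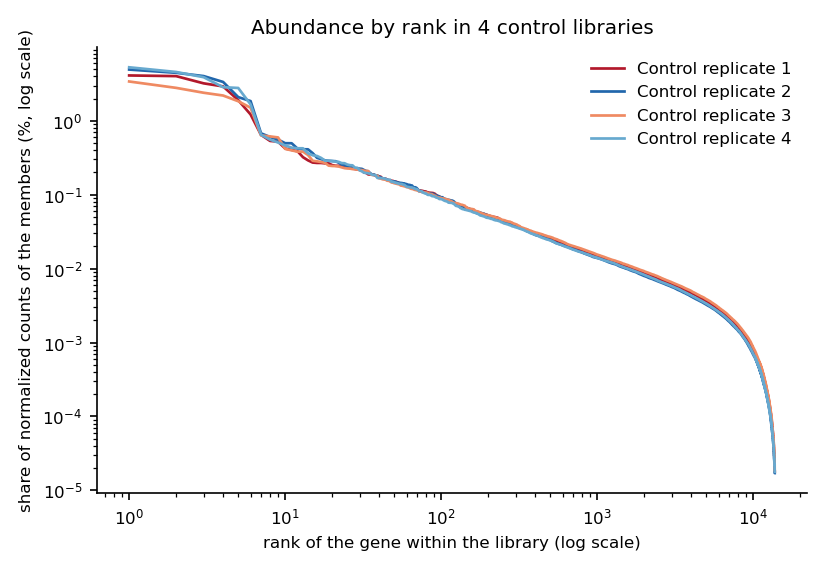
Share of the members' normalized counts (%, log scale) against the rank of the gene within its library (log scale), 1 line for each of the 4 control libraries. The lines begin between 3.41% and 5.3% at the first rank, with replicate 3 lowest, and run close together from the first 1000 ranks on.

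Collagens led the list. Col2a1, the main collagen of cartilage, had 2428895, 3186241, 1261372 and 3342494 normalized counts, a mean of 2554750.5 ± 950086. Replicates 2 and 4 were high and replicate 3 was lowest, 2.65 times below the highest. Col1a1, which with Col1a2 encodes the type I collagen of bone and tendon, had 2479501, 2602744, 1953074 and 2455549. Its libraries were close together, 1.33 times apart, while Col1a2 ranged from 1375396 to 2166887. Col3a1, the type III collagen of granulation tissue and vessel walls, had 1939720.0, 2883216, 1601115 and 2888262, again with replicates 2 and 4 above 1 and 3. These 4 genes alone summed to 14.2%, 16.8%, 10.8% and 16.6% of all normalized counts. The same separation, both of replicates 2 and 4 above both of 1 and 3, was seen in Col6a1, Col6a2, Col6a3, Col5a1, Col5a2, Col11a1 and Col11a2. Collagen IV of basement membranes had the pairs the other way round: Col4a1 had 194249.9, 87664, 219304 and 145907, and Col4a2, which encodes its partner chain, ranged from 46290.4 to 120122. None of the 19 genes of the collagen list differed 4 times between its highest and lowest library. That ratio was reached by 9.78% of all members and by 4.44% of those at 100000 or more. The median ratio of the list was 1.91, against 1.6 over all members and 1.62 over those at 100000 or more.

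Normalized counts grow with transcript length, so the order of genes by level was also taken per kilobase of annotated exon sequence, which was available for 12886 members. On that scale Col2a1 was still first with 500539 normalized counts per kilobase. Col3a1 (418418), Col1a1 (400121), Sparc (391161) and Col1a2 (331979) came next, and Spp1 (200206), Dcn (166161), Comp (165404) and Fn1 (144404) followed. Neighbours such as Col3a1, Col1a1 and Sparc differed by less than the SD of Col3a1 over the libraries, so their order is not fixed by these data. The short transcripts S100a8, Mgp, Igfbp7, Clec3a, S100a9 and the mitochondrial CYTB entered the first 15 per kilobase, where they had ranked 29 to 115 by count. Of the first 100 genes by mean count, 68 were also among the first 100 per kilobase, and Spearman's rho between both scales was 0.895 across genes.

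Adhesive and regulatory matrix proteins were also among the most abundant transcripts. Fn1 encodes fibronectin, the adhesive glycoprotein of provisional matrix, and had 735637, 1351046, 1056089 and 1754848 normalized counts, 2.39 times apart. Both of replicates 2 and 4 lay above both of 1 and 3, as in Col3a1, but the lowest library of Fn1 was replicate 1 and that of Col3a1 replicate 3. Sparc (osteonectin, a collagen-binding glycoprotein) had 1148526, 1194197, 862445 and 1052224. Comp, cartilage oligomeric matrix protein, which links collagen fibrils in cartilage and tendon, had 389324, 437275, 364013 and 407856. Both were even, 1.38 and 1.2 times apart. Spp1 (osteopontin, a phosphoprotein of mineralised and injured tissue) had 315387, 389343, 341639.7 and 273392, lowest in replicate 4. Postn (periostin, made by periosteum and fibroblasts of healing tissue) ranged more widely, with 88418, 133825, 61942 and 198268 and the highest value in replicate 4. The 25 matricellular and adhesive genes together took 4.53%, 5.45%, 4.58% and 6.03% of counts, and none was 4 times apart. That ratio was reached by 9.78% of all members and by only 3.54% of those from 10000 to 100000.

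The small leucine-rich proteoglycans, which bind collagen fibrils and set their diameter, were even between libraries. Decorin (Dcn) had 322496, 320816, 352706 and 292724 normalized counts. Fibromodulin (Fmod) had 254358, 265573, 238950.4 and 268122, 1.12 times apart. Lumican (Lum), Prelp and biglycan (Bgn) were in the same range of spread, 1.18, 1.17 and 1.44 times apart. The 11 genes summed to 2.1%, 1.95%, 2.1% and 1.99% of counts, a highest to lowest ratio of 1.08. Over all members the median coefficient of variation (CV, the SD divided by the mean) was 0.208. It was 0.13 for members from 10000 to 100000 and 0.219 for those at 100000 or more. The 11 proteoglycan genes had a median CV of 0.162. Osteomodulin (Omd), an osteoblast proteoglycan, was the widest of them with 29898, 19186, 7793 and 18685, and chondroadherin (Chad) of cartilage had 142916, 67842, 120077 and 92710.4. Both were highest in replicate 1, but Omd was lowest in replicate 3 and Chad in replicate 2.

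**Figure D2:**
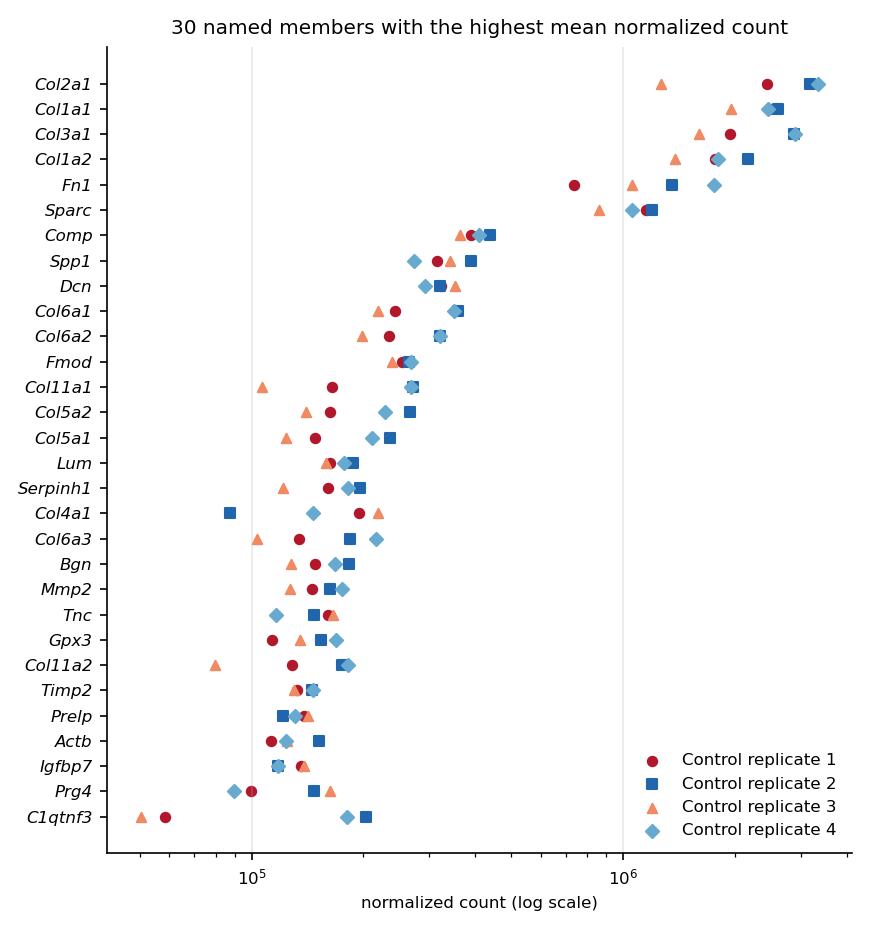
Normalized count (log scale) of the 30 named members with the highest mean in each of the 4 control libraries, ordered by mean. Col2a1 spreads from 1261372 in replicate 3 to 3342494 in replicate 4, Fmod stays between 238950 and 268122, and C1qtnf3 separates replicates 2 and 4 from 1 and 3.

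Genes for the making of collagen accompanied it. Serpinh1 encodes the collagen chaperone HSP47 and had 160277, 195397, 121239 and 182058 normalized counts. Lox, which encodes the enzyme that starts crosslinks between collagen molecules, had 32766, 81382, 30713 and 62576. Replicate 2 was highest and replicate 3 lowest in both. Across the list of crosslinking and hydroxylation enzymes, replicate 2 was the highest library for 20 of 21 genes, against 25.3% of all members, and the list summed to 1.01%, 1.32%, 0.899% and 1.18% of counts. It was also highest for 21 of 24 secretory pathway chaperones, of which Serpinh1 had the highest mean, then Hspa5 (BiP, 64711 to 102958) and Pdia3 (a protein disulfide isomerase, 59200.4 to 78477); Serpinh1 and P4hb stand in both lists. Among proteases, Mmp2 (gelatinase A) had 145293, 162345, 127176 and 175572. Mmp13 (collagenase 3, of hypertrophic cartilage and osteoblasts) ranged from 55673 to 96704 and the inhibitor gene Timp2 from 129854 to 146460.3. Mmp9 (gelatinase B), which neutrophils and osteoclasts also make, had 16399.6, 36340.4, 9791 and 8826, with replicate 2 apart from the rest.

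Cartilage genes made up a large part of these libraries, Col2a1 foremost. The 23 genes of the list summed to 6.15%, 7.31%, 3.94% and 7.69% of counts, and 22 of them were members. Aggrecan (Acan), the large proteoglycan of cartilage, had 105450.4, 153804, 71699 and 157508 normalized counts. Col9a3, a chain of the type IX collagen on the surface of cartilage fibrils, had 94820.0, 139459, 50855 and 161357. In both, as in Matn3 (matrilin 3, 28012 to 100452) and Cnmd (chondromodulin, 41896 to 100408), replicate 3 was lowest and replicate 4 highest. Sox9, the transcription factor that turns on Col2a1 and Acan, was flatter with 19329, 24076, 17110.0 and 21677. Restricted to 13 genes for proteins of cartilage matrix, leaving out Comp, Prg4 and Chad, which tendon, synovium or bone also express, the sum was 4.99%, 6.19%, 2.73% and 6.65%. Lubricin (Prg4), of joint surfaces and tendon sheaths, was highest in replicates 2 and 3 with 99527, 146844, 162173 and 89666. Col10a1, the collagen of hypertrophic cartilage, had 7708, 10380.4, 0 and 1409; the 0 of replicate 3, where 3 reads would be 3.23 normalized counts, placed it outside the members. Matn1 (matrilin 1) was low and divided, 135, 875, 114 and 1245, with replicates 2 and 4 above 1 and 3.

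Osteoblast and mineral genes took 2.93%, 2.84%, 2.43% and 2.46% of counts, and all 20 were members. Ibsp (bone sialoprotein, a mineral-binding protein of osteoblasts) had 130597, 99004, 83409 and 100689 normalized counts. Alpl (alkaline phosphatase, which frees phosphate for mineral) had 28566, 20477, 19675 and 16825. Replicate 1 was highest in both. The osteocalcin genes Bglap and Bglap2 ranged from 6876 to 17595 and from 4770.5 to 11128; they share 74.7% and 88.2% of their stretches of 50 bases with other annotated transcripts, so their reads cannot be separated with certainty. Runx2, which commits cells to bone, had 2373, 2397, 1607 and 1481, and Sp7 (osterix), which acts after it, ranged from 1781 to 2531. Genes of the osteocyte list did not share 1 order. Dmp1 (dentin matrix protein 1) had 9110.5, 4624, 5718 and 2606, Phex (a phosphate-regulating peptidase) had 1621, 1112, 3105 and 291, and Mepe had 25.1 in replicate 4 against 988 in replicate 2; all of these were lowest in replicate 4. Cd109 (15579 to 19888), the most abundant of the list, and Pdpn (podoplanin, 1252 to 3029) were lowest in replicate 3 instead. Sost and Fgf23, which encode the osteocyte hormones sclerostin and FGF23, had no read in any control library; 3 reads would be 3.23 to 4.19 normalized counts.

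The gene that gave the cells their name was well covered but uneven. Lepr had 18730.3, 5379.9, 40594 and 935 normalized counts, a mean of 16409.7 ± 17808, and ranked from 142 in its highest library to 7955 in its lowest. Replicate 3 was highest, then 1, 2 and 4, and the extremes were 43.4 times apart. Cxcl12 ran in the same order with 112676, 55047, 228864 and 18900.4, 12.1 times apart. Kitl had 5380.1, 1768, 8599 and 1277, also in that order. Cxcl14 (a chemokine) was 12.1 times apart and Adipoq (adiponectin, a hormone of fat cells that LEPR-positive marrow cells also express) 12.3 times, both highest in replicate 3 and lowest in replicate 4. Esm1 (endocan, a proteoglycan known from endothelium) was the widest at 4030.3, 921, 7104 and 101. This order of the 4 libraries held for 14 of 24 genes of the niche list, Lepr included, against 6.56% of all members. Over all members 194, or 1.41%, kept the order and were also at least 4 times apart. The list summed to 0.676%, 0.406%, 1.14% and 0.354% of counts, and 11 of its 24 genes were 4 times apart (9.78% of all members).

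Not every marker of the labelled cell type spread so widely. Pdgfra, a receptor for platelet-derived growth factor found on mesenchymal cells, had 11382, 14268, 13648 and 16116 normalized counts, 1.42 times apart. Pdgfrb, its relative on mesenchymal and mural cells, had 34258, 37129, 36432 and 49386. Replicate 4, in which Lepr was lowest, was the highest library for both. Ebf1, a transcription factor of marrow stroma, had 4900.4, 4162, 6023 and 3753, and Foxc1, which CXCL12-abundant cells need, ranged from 3387 to 6569.7. Ebf1 and Foxc1 kept the order of Lepr at ratios of 1.6 and 1.94. Ebf3, which acts beside Ebf1, had that order too and was 6.09 times apart with 1154, 295, 1472 and 242. Endothelial RNA was high in replicates 1 and 3, where Lepr was highest; its part in the order of Lepr was not tested. Within each pair, the library with more Lepr (3 over 1, and 2 over 4) had an endothelial share of 0.681% against 0.531% and of 0.0263% against 0.037%.

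Further lineage lists had lower shares than the collagen, cartilage and osteoblast lists. The 19 genes of myofibroblasts, pericytes and smooth muscle took 0.302%, 0.269%, 0.273% and 0.368%, led by the actin gene Acta2 with 37081, 38528, 33741 and 52218 normalized counts. Replicate 4 was the highest library for 12 of the 19, against 23.9% of all members, among them Notch3 (a receptor of mural cells, 8781 to 17099) and Kcnj8 (a potassium channel of pericytes, 1189.7 to 5289). Tendon and periosteum genes took 1.17%, 1.19%, 1.35% and 1.19%. Scx (scleraxis, the tendon transcription factor) had 2483, 3635, 2377 and 3299, and Tnmd (tenomodulin, a later tendon marker) ranged from 7790.4 to 10314. In the adipocyte list, which took 0.0957%, 0.0395%, 0.115% and 0.0398%, Fabp4 had 21161, 1357, 19081 and 2783. This fatty acid binding protein is made by fat cells and by capillary endothelium, and its division matches the pairs 1 and 3 against 2 and 4. Genes of mature fat cells were low: Lep had no read, and Plin1, which coats fat droplets, had 32.4, 0, 52.8 and 165.

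Grem1, the gene deleted in the other genotype of the study, was a minor transcript of these control cells. It had 736, 517, 676 and 356 normalized counts, a mean of 572 ± 171, and ranked 9642 of 13717 by mean and 9944 of 12886 per kilobase. Replicate 4 was again lowest, 2.07 times below replicate 1. Several other BMP antagonists had more RNA per kilobase than the 138 of Grem1: Fstl1 (follistatin-like 1) had 25098, Nbl1 (DAN) 20972, Twsg1 (twisted gastrulation) 4143 and Chrdl1 (chordin-like 1) 1278. Fstl1 had 82994, 118129.6, 73768 and 105486 normalized counts, with replicates 2 and 4 above 1 and 3. Chrdl1 had 11330.3, 5934, 12092 and 5187, with the pairs reversed. Noggin (Nog) had 316, 215, 381 and 207 and 165 per kilobase, a level near that of Grem1. Of 15 antagonist genes 12 were members; Sost, Sostdc1 and Gdf6 were not. Among the 12 only Fstl3, an activin-binding protein, was 4 times apart (9.78% of all members), with 449.9, 1226, 261 and 907. It shares 58.1% of its stretches with other annotated transcripts, so its values are uncertain.

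Among ligands that gremlin 1 is known to bind, Bmp2 had 2697, 1495, 1906 and 1432 normalized counts (529.5 per kilobase). Bmp4 had 2117, 732, 2420.3 and 506 (699.6 per kilobase), with replicates 1 and 3 high. Bmp7 was lower at 626, 166, 271 and 476 (105 per kilobase). Per kilobase, Bmp2 and Bmp4 thus lay above Grem1 and Bmp7 below it. Bmp6 ranged from 1557 to 4780.3 in the order of Lepr. Gdf5, a ligand of joint-forming cells, ranged from 2672 to 4074, and Inhba, the activin A subunit, was highest in replicate 2 with 3709, 11473, 5655 and 5684. Bmp1, which ranged from 18813 to 25585, encodes despite its name the protease that trims procollagen. Of the receptors, Bmpr1a had 6338, 8675, 5245 and 8459, Acvr1 was even at 3003 to 3501, and Bmpr2 ranged from 374 to 1162. Acvrl1 (ALK1) and Eng (endoglin), the receptor pair of endothelium, were 7.99 and 8.09 times apart with replicates 1 and 3 high. The signal transducer gene Smad1 ranged from 3762 to 6927 and Smad5 from 3243 to 4584.

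BMP target genes were read in every control library. Id1, Id2 and Id3 encode inhibitors of helix-loop-helix factors that BMP receptors switch on quickly, and Id3 had the highest mean count of them, with 21854, 16559, 21997 and 17488 normalized counts. Id1 had 2613, 1342, 2713 and 1654, and Id2 ranged from 5042 to 8441. The feedback inhibitor genes Smad6 and Bambi ranged from 774 to 2269.8 and from 1989.8 to 4260.0. The 15 genes of the list took 0.0738%, 0.0491%, 0.0798% and 0.0498% of counts. Of them 14 were members, and none was 4 times apart (9.78% of all members). In 6, replicates 1 and 3 lay above the widest gap of their 4 values, a pattern of 11.1% of all members. Endothelial cells also express Id1, Id3, Smad6 and Hey1, and the part of the endothelial RNA of replicates 1 and 3 in these values was not tested.

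In other growth factor pathways, secreted modulators had high counts. Tgfb3, which encodes a transforming growth factor beta ligand, had 11342, 13166, 9759 and 13631 normalized counts, and its receptor gene Tgfbr2 ranged from 16482 to 19639.5. Ltbp4, whose product holds latent TGF-beta in the matrix, had 60055, 26815, 69100.1 and 29828, with replicates 1 and 3 high. For Wnt signalling, the antagonist gene Wif1 had 30352, 10476, 15668 and 10607. Dkk3 ranged from 27622 to 38678, the ligand gene Wnt5a from 819 to 1773 and the feedback target Axin2 from 86.6 to 193. Igfbp7, a binding protein of the insulin-like growth factor family, was steady with 136195, 117771, 138236 and 117599.8. Igfbp3 was not: it had 25384, 3537, 25955 and 3695, 7.34 times apart with replicates 1 and 3 high. Fgfr1 was even at 12069 to 13082, and the cartilage receptor gene Fgfr3 ranged from 6087 to 15010.2. Of the Hedgehog and Notch list, 8 of 19 members were 4 times apart (9.78% of all members), 5 of them with replicates 1 and 3 high (2.78%), such as the Notch ligand gene Jag2 (22.1 to 2308) and the endothelial receptor gene Notch4 (143 to 4289). Smo, the Hedgehog signal transducer, was even at 6924 to 7844.

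Cytokine and chemokine genes other than Cxcl12 and Cxcl14 had lower counts. Csf1, the growth factor of macrophages and osteoclast precursors, had 8771, 9051, 11982 and 5676 normalized counts. Tnfsf11 encodes RANKL, the signal for osteoclast formation, and had 1143, 1457, 605 and 774. Its decoy receptor gene Tnfrsf11b (osteoprotegerin) ranged from 4565 to 6652, and per kilobase had 2041 against 445. Il6 was even at 254 to 349, and Il11, a cytokine of injured stroma, ranged from 116 to 935 with replicate 2 highest. Vegfa, the main angiogenic ligand, had 3148, 6711, 5628 and 6792, lowest in replicate 1. Vegfc, a ligand for lymphatic vessels, had 2681, 527, 1994 and 499, with replicates 1 and 3 high.

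Genes of other cell types made up less of the RNA than the collagen, cartilage or osteoblast lists. In replicate 2, but in no other library, the neutrophil list (0.96%) exceeded the LEPR niche list (0.406%). Genes of endothelium, which lines the vessels, separated the libraries most. Plvap, which forms the diaphragms of fenestrated endothelium, had 82751, 2922, 105432 and 3597 normalized counts, 36.1 times apart. Pecam1 (CD31) had 38993, 1242, 47308 and 2627. Kdr, the main receptor for vascular endothelial growth factor, had 14009.5, 459, 17585 and 492. In all of these replicates 1 and 3 were high and replicates 2 and 4 low, with no overlap, and Cdh5 (VE-cadherin) and Vwf (von Willebrand factor) were 40.2 and 27.4 times apart in the same way. The list had 19 members of 20 genes, and 18 of the 19 were at least 4 times apart with replicates 1 and 3 above the widest gap. That pattern held for 382 members, 2.78% of all. The median ratio of the list was 32.3, against 1.6 over all members. Erg, an endothelial transcription factor also known from cartilage, was the exception with 1234, 757, 1110.0 and 511. Stab2, a receptor of sinusoidal endothelium, had 443, 0, 1522 and 27.9, and Dll4, the Notch ligand of sprouting vessels, was at 0 in both replicates 2 and 4, with 2945 and 2923 in 1 and 3.

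Neutrophil granule genes were the second such group, with 0.249%, 0.96%, 0.446% and 0.225% of counts. S100a8, a subunit of the calcium-binding protein calprotectin, had 35131, 121108, 55923 and 31471 normalized counts. Ngp (neutrophilic granule protein) had 41254, 185509, 66528 and 40495. Replicate 2 was the highest library in both and for 12 of 15 genes of the list, against 25.3% of all members. Primary granule genes, which are transcribed in promyelocytes, had the widest ratios, 12.2 to 19.6. Of these, Mpo (myeloperoxidase) had 5113, 55418, 14773 and 3669, Elane (neutrophil elastase) had 1070.1, 16386, 3587 and 855, and Prtn3 (proteinase 3) and Ctsg (cathepsin G) had their highest values, 6162 and 3885, in replicate 2 too. The exceptions in the list were Retnlg, Mmp8 and Cxcr2. Retnlg had 2929, 1796, 6522 and 2775 and Mmp8 (neutrophil collagenase) had 2564, 2746, 5153 and 2032, both highest in replicate 3, and the chemokine receptor gene Cxcr2 was highest in replicate 1. Of all members 63, or 0.459%, had replicate 2 alone above the widest gap and were at least 4 times apart. The most abundant 5 of them were Ngp, Ltf (lactoferrin), Mpo, Camp (cathelicidin) and Mmp9.

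Macrophage genes took 0.0588%, 0.112%, 0.0925% and 0.0522% of counts, most of it Lyz2 (lysozyme, shared with neutrophils) with 22740.3, 56428, 36628 and 23685 normalized counts. The pan-leukocyte gene Ptprc (CD45) had 1798, 1766, 1492 and 1245, and the macrophage genes Adgre1 (F4/80) and Csf1r ranged from 119 to 293 and from 847 to 1459. Erythroid genes took 0.109%, 0.122%, 0.171% and 0.202%, of which 3 hemoglobin genes held only 0.0143%, 0.00991%, 0.0472% and 0.0154%. The erythroid genes did not share 1 order. Hba-a2, an alpha globin gene sharing 86.9% of its stretches with other transcripts, had 4411, 3083, 14648 and 4712, highest in replicate 3. Klf1, a factor of red cell precursors, had 2940.0, 3101, 3678 and 6048, highest in replicate 4, as were Slc4a1 (band 3, 1243 to 5805) and Car2 (carbonic anhydrase 2, also of osteoclasts, 27300.3 to 56504). Genes of B and plasma cells did not share 1 order either. Igkc, the kappa constant region, had 2012, 89.7, 776 and 6161, and Jchain and Igha were at 0 in replicate 2 with 1948 and 7903 in replicate 4. Ighm, the heavy chain of IgM, had 2963, 1826, 2405 and 1316, and Cd79a, a part of the B-cell receptor, had 615, 355, 867 and 187, both lowest in replicate 4.

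The remaining lists were close to their detection limit, rested on shared genes or, for osteoclasts, held both abundant and absent genes. T and NK cell genes summed to 0.000757%, 0.0028%, 0.00194% and 0.00079% of counts; Cd3g and Cd8a had no read, and 3 of 11 genes were members. Skeletal muscle genes summed to 0.00755%, 0.00969%, 0.00594% and 0.0107%, mainly from desmin (Des), which pericytes also express. Only 6 of 19 muscle genes were members, and Ckm (muscle creatine kinase) had 87.8, 108, 85.1 and 0 normalized counts. Schwann cell genes summed to 0.0592%, 0.0543%, 0.0642% and 0.0475%, mostly Pmp22, which fibroblasts share. The osteoclast list took 0.0932%, 0.122%, 0.0784% and 0.0712% of counts, and 5 of its 11 genes were members. After Mmp9 the highest means were those of Ctsk (15445.5 to 19162), Nfatc1 (12858 to 14995) and Itgb3 (4058 to 6057). Oscar, Dcstamp and Ocstamp were at 0 in at least 2 libraries each. The mast cell protease genes Mcpt4 and Tpsb2 had no read.

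**Figure D3:**
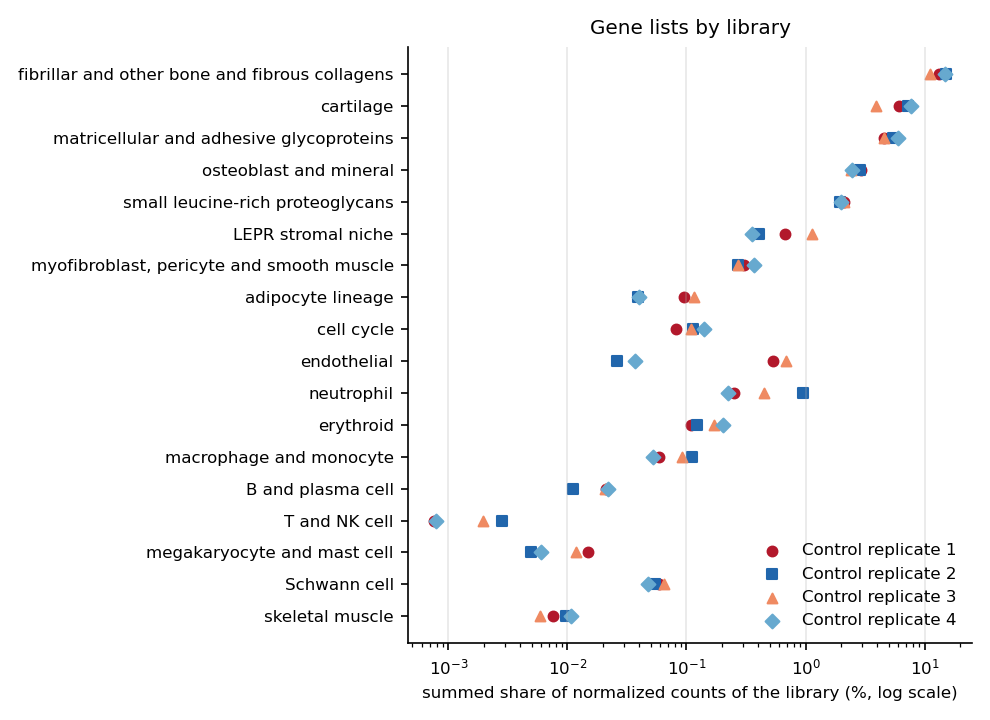
Summed share of normalized counts (%, log scale) of 18 gene lists in each of the 4 control libraries. Matrix lists lie close together to the right, the endothelial list runs from 0.0263% in replicate 2 to 0.681% in replicate 3, and the neutrophil list has replicate 2 apart at 0.96%.

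Members with a mean from 1000 to 10000 had a median CV of 0.155, and all members one of 0.208. The list of skeletal and stromal transcription factors had 58 members, with a median mean of 2698 and a median CV of 0.192. The list also held members with a mean under 1000, such as Ebf3, and the median CV of all members from 100 to 1000 was 0.308. Its spread was not compared with that of genes of like level. Hif1a, the oxygen-regulated factor, had the highest mean count of them, with 33859.8, 34423, 27568 and 37418 normalized counts. Xbp1, a factor of secretory cells, ranged from 20649.8 to 23637. Prrx1, which marks limb mesenchyme, had 5708, 6915, 5137 and 6439, and the hindlimb factor gene Pitx1 ranged from 1786 to 2216. Posterior Hox genes were read as well, Hoxa10 at 2176 to 2792 and Hoxc10 at 1184 to 1661. In the list 4 of 58 were 4 times apart, Ebf3 among them. Over all members this held for 9.78%, and for 3.41% of those with a mean from 1000 to 10000.

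Genes that respond within minutes to stimulation were prominent. Fos had 83719, 41424, 92782 and 54627 normalized counts. Egr1 had 41400.3, 22677, 43957 and 25589. In these, as in Jun (24775 to 42728) and Dusp1 (16542 to 27941), both replicates 1 and 3 lay above 2 and 4. The list of immediate early and heat shock genes took 0.661%, 0.486%, 0.748% and 0.519% of counts. Glycolysis genes had the reverse division. Ldha (lactate dehydrogenase A) had 72661, 112829.7, 72596 and 106206, and 15 of 23 genes of the glycolysis and hypoxia list had replicates 2 and 4 above the widest gap, a pattern of 9.17% of all members. Ndrg1, another hypoxia gene, ran against the list with 8423, 3400.4, 11131 and 2718. Cell cycle genes took 0.081%, 0.113%, 0.109% and 0.14%; Mki67, the proliferation antigen, had 3480.4, 4075, 3875 and 7093, and replicate 4 was highest for 15 of 20, against 23.9% of all members. Interferon-stimulated genes took 0.113%, 0.0647%, 0.11% and 0.0752%, led by Ifitm3 at 22798 to 37142, and Ifi44 was the widest of them with 1174, 38.6, 612 and 86.6.

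Sums over general cell functions differed in their spread. Ribosomal protein genes were tight and summed to 0.477%, 0.457%, 0.467% and 0.466% of counts, although many have processed pseudogenes to which their reads can also map. The 13 mitochondrially encoded genes summed to 0.653%, 0.475%, 0.621% and 0.491%, 1.38 times apart with replicates 1 and 3 above 2 and 4. In 7 of the 13, replicates 1 and 3 lay above the widest gap (11.1% of all members), and CYTB (cytochrome b) had 119149, 91804, 104872 and 94182 normalized counts. Among mitochondrially encoded genes, the stretches shared with other annotated transcripts ran from 0% in CYTB to 100% in COX2. Their sum and their levels beside each other thus depend on how such reads were counted. Actb (beta actin) had 112777, 151474, 124575 and 124049.9. Gapdh had only 603, 769.7, 674 and 769.9, low for a gene that all cells use, and 27.8% of the stretches of Gapdh occur in other annotated transcripts. How reads that map to several places were counted is not given in the sources used here, so levels of such genes are uncertain.

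Over all 13717 members the median CV was 0.208 and the quartiles were 0.123 and 0.357. Counting error alone would have given less: the median gene had a CV 6.21 times that of its recovered reads, and 186 members lay below their counting CV. Spread depended on level. The median CV was 0.446 for members with a mean under 100, 0.308 from 100 to 1000, 0.155 from 1000 to 10000 and 0.13 from 10000 to 100000, then 0.219 for the 45 genes at 100000 or more. In 1560 members (11.4%) the highest library was at most 1.2 times the lowest, in 4344 (31.7%) at least 2 times, and in 1342 (9.78%) at least 4 times. A CV over 1 was found for 163 members. Without replicate 1 or 3 that number was 344 or 315, and without replicate 2 or 4 it was 89 or 101, each over the members at 10 or more in the 3 libraries kept.

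The 10 steadiest members were the lowest CVs of 7962 with a mean of at least 1000, so values this low follow in part from the choice. Except in Psmb1, their CV was below that of their recovered reads, which 4 libraries can give by luck. Sh3gl1, an endophilin of membrane trafficking, had 10701, 10785, 10659 and 10778 normalized counts, a CV of 0.0057 where counting alone would give 0.011. Nsf, the ATPase that takes apart membrane fusion complexes, had 5137, 5219.9, 5161 and 5084, Psmb1 (a proteasome subunit) had 9751, 9819, 9541 and 9667 and Ndufa11 (a subunit of respiratory complex I) had 4113, 4166, 4158 and 4061. The other 6 of the 10 were Gpatch1, Sec14l2, Btf3, Foxn3, Prpsap1 and Sgta. At the other end, Cfd (complement factor D, or adipsin) had 532, 80.0, 131 and 3736, and the remaining 9 were Elane, Prtn3, Mpo and Ctsg of neutrophils, Tek, Sele and She of endothelium, Igkc, and Aoc2. Sele (E-selectin) had 6862, 237, 13561 and 374, Tek (the TIE2 receptor) 9790.0, 320.0, 16319.8 and 609 and Aoc2 (an amine oxidase) 6654, 78.6, 2911 and 254. Of these 10, 4 were highest in replicate 2, 3 in replicate 3, 2 in replicate 4 and 1 in replicate 1.

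**Figure D4:**
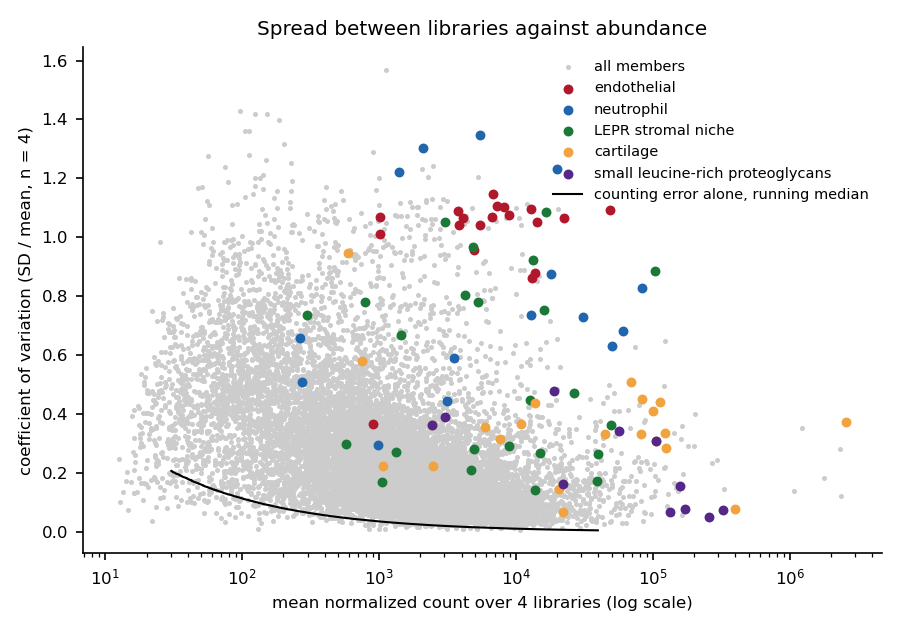
Coefficient of variation (SD divided by mean, n = 4 libraries) against mean normalized count (log scale) for all 13717 members in grey, with members of 5 lists in colour and the running median of the counting error as a line. Endothelial genes lie mostly near a CV of 1, 4 neutrophil genes above 1.2, and the small leucine-rich proteoglycans below 0.5.

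The libraries that held the high values were then read from each gene, by taking the widest gap between its 4 values on a log scale. Among the 1342 members at least 4 times apart, replicates 1 and 3 lay above that gap in 382 (2.78% of all members) and replicates 2 and 4 in 52 (0.379%). The other 4 pairs of libraries had 23 to 33 each. With a mean of at least 1000, 188 of 273 such members had replicates 1 and 3 high and 8 had 2 and 4 high. The 8 included C1qtnf3, a secreted protein of the C1q family made in cartilage, with 58639, 203769, 50448 and 180212 normalized counts, and Lrrc15, a surface protein of matrix-forming fibroblasts, with 8252, 16162, 4408 and 19631. The most abundant 5 with replicates 1 and 3 high were Plvap, Pecam1, Aplnr (the apelin receptor), Cd34 and Fbln5, of which Cd34, a marker of endothelium and some fibroblasts, had 27558, 10252, 34590.4 and 7752 and Fbln5 (fibulin 5, of elastic fibres) had 26444, 8906, 25022 and 5901. Replicate 4 alone lay below the gap in 153 of the 1342 (11.4%), Lepr and Cxcl12 among them. Over all levels, replicate 1, 2 or 3 alone lay below it about as often, in 155, 137 and 121. Among those with a mean of at least 1000, as Lepr and Cxcl12 have, replicate 4 alone lay below it in 25. Replicate 1, 2 or 3 alone did so in 4, 9 and 13. Within pairs the divergence was smaller: 1485 members (10.8%) differed at least 2 times between replicates 1 and 3 and 1302 (9.49%) between 2 and 4, against 15.3% to 15.9% for the other pairs. At least 4 times apart were 289 members (2.11%) between replicates 1 and 3 and 252 (1.84%) between 2 and 4. The other pairs had 4.32% to 4.66%.

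**Figure D5:**
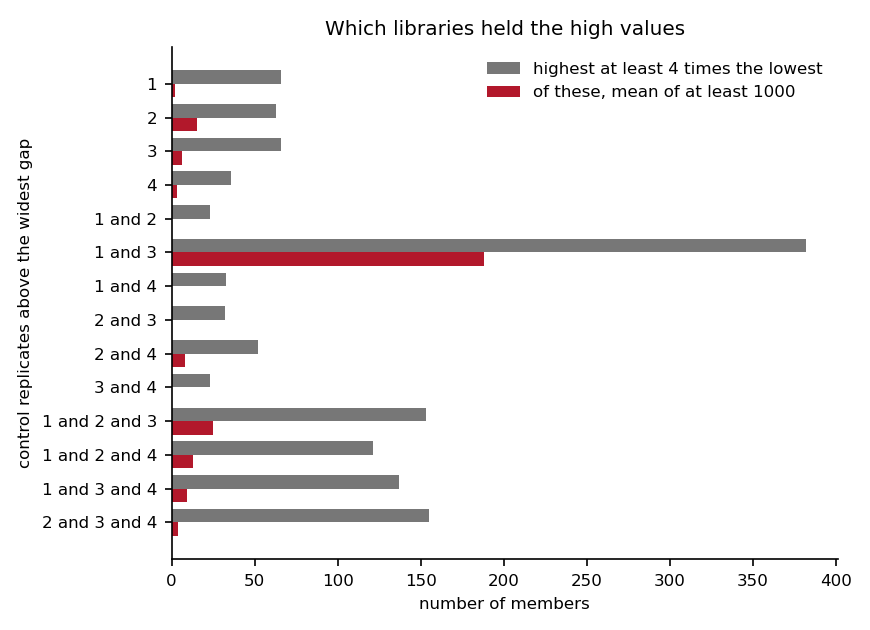
Number of members whose highest library was at least 4 times the lowest (grey) and of those with a mean of at least 1000 (red), by the control replicates that lay above the widest log-scale gap. Replicates 1 and 3 together hold 382 and 188, more than any other set.

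Promoter sequences were examined for the most abundant genes, since a TATA box marks promoters of many strongly transcribed, tissue-restricted genes. RefSeq windows (GRCm38.p6) matched 10507 members and 76 of the 100 most abundant. The letters TATAAA, on either strand and anywhere in the 250 bases before to 50 bases after the start, occurred in 18 of 76 windows (23.7%), in 8.91% of members and in 15.7% of all 27025 windows of that length. On the sense strand and starting 21 to 45 bases before the start, they occurred in 7 of the 76 (9.21%), 1.56% of members and 2.57% of all windows. The 7 are printed as the 100 bases before the start, 5′ to 3′ on the gene's strand, with TATAAA in capitals. They are Ecm1 at chr3:95739570-95739669 on the minus strand and, on the plus strand, Postn at chr3:54361007-54361106, Chad at chr11:94564947-94565046, Fos at chr12:85473790-85473889, S100a8 at chr3:90668971-90669070, Igfbp4 at chr11:99041144-99041243 and Vim at chr2:13574211-13574310.
Postn: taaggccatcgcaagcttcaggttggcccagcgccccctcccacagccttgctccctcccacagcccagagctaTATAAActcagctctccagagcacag
Ecm1: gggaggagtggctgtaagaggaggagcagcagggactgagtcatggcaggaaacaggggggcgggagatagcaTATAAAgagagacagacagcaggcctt
Chad: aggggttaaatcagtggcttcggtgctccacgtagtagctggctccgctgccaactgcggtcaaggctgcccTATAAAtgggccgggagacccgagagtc
Fos: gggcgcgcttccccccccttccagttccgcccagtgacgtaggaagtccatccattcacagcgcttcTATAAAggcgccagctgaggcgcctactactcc
S100a8: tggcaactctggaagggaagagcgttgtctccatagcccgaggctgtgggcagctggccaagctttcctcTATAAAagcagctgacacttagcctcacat
Igfbp4: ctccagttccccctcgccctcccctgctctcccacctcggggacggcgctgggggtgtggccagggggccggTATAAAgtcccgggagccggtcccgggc
Vim: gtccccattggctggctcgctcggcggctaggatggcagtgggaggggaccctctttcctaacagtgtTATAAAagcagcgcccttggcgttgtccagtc
The motif began 26 bases before the start in Postn, 27 in Ecm1, 28 in Chad and Igfbp4, 30 in S100a8, 32 in Vim and 33 in Fos. These 7 genes did not share a pattern between libraries: S100a8 was highest in replicate 2, Postn in 4, Chad in 1, and Fos and Igfbp4 in 3. A match describes these letters only. Where the letters are absent, nothing follows about the factors that bind there.

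The threshold of 10 in every library kept genes whose lowest value came from few reads. The 3 members just inside had 10.8 normalized counts in their lowest library, and the 4 values of Garnl3, which was one of them, were 311, 556, 10.8 and 468. Just outside, Nos1ap, Tstd1 and H2ac13 had 9.78 in their lowest library. Of genes with at least 1 read in a control library 4662 were not members, and members held 99.8% of the counts of each library. Among the genes that were not members, 19 were at 0 in at least 1 library and at 1000 or more in another: Col10a1, Dll4, Stab2, Xist, Ddx3y and Jchain, given above, were of this kind, and so was the basophil and mast cell protease gene Prss34 with 3224, 0, 1266 and 676 normalized counts.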

How the data were processed

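Normalized counts were deposited by the authors as a single matrix, a signal in which the reads of each of 27179 Entrez gene IDs were divided by a library's size factor. The submitters' processing notes name STAR, featureCounts, DESeq2 and mm39, without versions. Annotation, strand setting and treatment of reads that map to several places: not given in the sources used here. Only the 4 control columns were described. The other 5 columns served for 1 count of genes at 10 or more in all 9 libraries, and the authors' deposited table of their own comparison was not used.

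Within each library, values were whole multiples of the smallest one (tolerance 0.01 of a read; 1 value in 1 library was not), so whole reads were recovered for depth and for the spread expected from counting alone. Polymerase duplicates are not independent molecules, so floors of 3 reads and counting spread cover counting error only. Symbols came from a RefSeq gene table of GRCm38.p6, which names 25275 of the IDs; as its build differs from mm39, its coordinates are given for promoter sequences only. Exon lengths were the union of GENCODE M21 basic transcripts. Stretches of 50 bases shared with transcripts of other genes, overlapping and antisense ones included, were counted on both strands in GENCODE M21 transcripts. Means, SDs, ranks, shares and ratios were computed in Python 3.11.15 (pandas 2.3.3, numpy 2.4.6), and alternative scaling factors with edgeR 4.0.16 in R 4.3.3. The pattern and spread counts were checked on simulated data with known answers. Those had less spread than the median member, and changes larger than 4 times in genes with a mean of at least 1000. The check does not cover genes of lower level, wider spread or smaller changes.

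The members, gene lists and settings were chosen with earlier results of these data known, so no list is independent evidence. Genes named by rule were Lepr and Grem1; the 30 highest by mean and 15 per kilobase; in each list the 4 highest means and the widest ratio; the 10 steadiest and 10 most variable with a mean of at least 1000; the 5 most abundant of each pattern of high libraries; and the 3 genes on each side of the threshold. Predicted genes, pseudogenes and IDs without a symbol, among them rank 18 by mean, were passed over. Some genes that these rules name are not reported here. Other genes in the text were named after their values were seen. Alternatives were other thresholds, pseudocounts, scalings (TMM and upper quartile), a median in place of a mean, values per kilobase, and leaving out libraries singly or as the pairs 1 and 3 or 2 and 4.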

Additional observations from a re-analysis of the deposited data

Results flagged for a closer look

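In 7 of 269 named genes and in 3 of 47 summed gene lists, 1 control library stood apart from the other 3 by more than the 95% limit of Dixon's test for 4 values, which compares the gap to the next library with the whole range. Chance alone gives about 1 in 20 such groups, and 683 of all members (4.98%) met the same limit. Each is given as a value, and no cause was tested.

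Mgp (matrix Gla protein, which keeps cartilage from calcifying) had 55861 normalized counts in control replicate 2 and 79439 to 83510.4 in the others. Cfd (adipsin) had 3736 in replicate 4 and 80.0 to 532 elsewhere, and the neutrophil protease gene Prtn3 had 6162 in replicate 2 against 504 to 1053. Itgb3 (integrin beta 3, of platelets, osteoclasts and other cells) had 6057 in replicate 2 against 4058 to 4336. Both globin genes tested this way were high in replicate 3: Hba-a2 had 14648 and Hbb-bs had 5075. Itga2b (integrin alpha IIb of megakaryocytes) had 1065 in replicate 1 and 364 to 450.0 in the others, so the 2 subunits of the platelet integrin did not stand out in the same library.

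The tendon and periosteum list summed to 1.35% of normalized counts in replicate 3, against 1.17% to 1.19% in the others. The BMP and GDF ligand list summed to 0.0639% in replicate 4, against 0.0772% to 0.0792%. The B and plasma cell list summed to 0.0111% in replicate 2, against 0.0205% to 0.0221%.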

How the results depend on the processing

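The number of members was 13311 to 15918 under other thresholds, 10 recovered reads, a mean of 10 or other scalings, and 13943 to 14416 with libraries left out, each within 1.5 times the 13717 reported. Counted over all genes of the matrix, the first 10 and 100 genes held 20.5% and 35.4%, within 1 SD of the shares reported. With libraries left out, these shares stayed within 1 SD, as did the cartilage, osteoblast, LEPR niche, endothelial, neutrophil and muscle lists. That outcome was fixed: leaving out 1 or 2 of 4 values cannot move their mean by more than their SD. The endothelial mean of 0.319% became 0.198% without control replicate 3, and the neutrophil mean of 0.47% became 0.307% without replicate 2. Counts of spread depended on the settings. Members with a CV over 1 numbered 93 with a threshold of 50, and 89 to 344 with 1 library left out, against 163. Members at least 4 times apart numbered 753 with a threshold of 50, against 1342. Without replicates 1 and 3 the number was 326 of 14416 genes, and without 2 and 4 it was 387 of 14410. Those were genes at 10 or more in the 2 libraries kept, a larger set than the members. Fewer libraries, or fewer genes at a higher threshold, lower such a count by construction. The 52 members with replicates 2 and 4 high became 33 with a threshold of 50, a setting chosen after seeing the data, as were all alternatives for the counts of such patterns; the 382 with replicates 1 and 3 high became 297 to 400. Of 266 named genes with a length, 162 changed rank per kilobase by more than the SD of their ranks over libraries. Without replicates 1 and 3, 50 of 269 did, and without 2 and 4, 30. Every mean of these 269 stayed within 1 SD, but this too was fixed by arithmetic and shows no stability. No paired analysis was possible because no test between groups was made. Depth limits the members under 100 normalized counts most, whose median counting CV was 0.149.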

Other observations

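Imprinted genes, which are transcribed from 1 parental copy and are often active in growing tissue, were read at moderate levels. H19 had 3228, 5999, 2490.3 and 5911 normalized counts in control replicates 1, 2, 3 and 4, and its neighbour Igf2, a growth factor, had 1284, 2014, 2242 and 2848. Peg3 had 9983, 14950.5, 4028 and 13106, and Plagl1, a zinc finger factor, had 4059, 5763, 1553 and 4631. H19, Peg3 and Plagl1 were highest in replicate 2, then 4, 1 and 3, with the same pairs apart as in Col3a1, and this was the most common of all library orders (6.92% of members). Igf2 was lowest in replicate 1. Cdkn1c, an imprinted inhibitor of cell division, was more even at 3264 to 4282.

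The list of 19 complement and serpin genes took 0.72%, 0.667%, 0.696% and 0.663% of normalized counts, most of it from serpins such as Serpinh1 and Serpine2. Complement genes differed in spread. C3 had 10449, 13143, 10249 and 13283 normalized counts, with replicates 2 and 4 above 1 and 3. Serping1, the C1 inhibitor, ranged from 29049.9 to 52999, and Cfd was 46.7 times apart.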
